A study of Homo sapiens with 26 samples.

Results

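The 145 genes described here are the snoRNA and scaRNA genes measured in an APEX-seq study of RNA near the plasma membrane, chosen by name: every row whose symbol begins SNORD, SNORA or SCARNA, apart from the 4 copies of U3. They are 56 box C/D genes, 74 box H/ACA genes and 15 genes of small Cajal body RNAs, of 25745 genes in all. The cells were HEK293T, a human embryonic kidney line, stably expressing a fusion of APEX2, a peroxidase that turns biotin-phenol into a short-lived tag for nearby molecules. The fusions carried sequences of Lyn11 or Lck, which the series places inside the membrane, or of CD28 or PDGFR, which it places outside. Labeled libraries numbered 4 for Lyn11 and 3 each for Lck, CD28 and PDGFR, and unlabeled controls numbered the same. As the labels list the steps, all cells were kept with biotin-phenol (500 mM) over 30 min and with hydrogen peroxide (1 mM) over 1 min, and biotinylated RNA was taken up on streptavidin. The step left out of the controls, the promoter driving each fusion, and whether a line was 1 clone are not stated in the sources used here.

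Small nucleolar RNAs guide chemical changes of other RNAs by base pairing. Box C/D RNAs carry a C box near the 5′ end and a D box near the 3′ end, bind the methyltransferase fibrillarin and direct 2′-O-methylation of ribosomal RNA, while box H/ACA RNAs carry a hinge (H) box and an ACA near the 3′ end, bind dyskerin and direct pseudouridylation. Small Cajal body RNAs have one or both kinds of box and guide the same changes of spliceosomal small nuclear RNAs. In human cells most are cut out of the introns of host genes and they are known as nuclear RNAs.

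The sequences below are those of the 6 genes that rose with labeling on average, of 2 H/ACA genes that fell and of a pair of related Cajal body RNAs, so that class and box can be read beside the values that follow. They were taken from the GRCh38 genome at GENCODE 29 coordinates and are written as transcribed. Capitals mark TGATGA within the first 20 bases and CTGA within the last 15 in C/D genes, and ANANNA between 40% and 60% of the length and ACA within the last 6 bases in the others.
SNORD99: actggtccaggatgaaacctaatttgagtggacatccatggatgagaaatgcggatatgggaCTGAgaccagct
SNORD100: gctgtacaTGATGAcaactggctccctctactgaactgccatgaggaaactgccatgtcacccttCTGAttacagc
SNORD12C: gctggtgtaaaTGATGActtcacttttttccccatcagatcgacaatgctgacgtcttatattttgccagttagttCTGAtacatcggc
SNORD104: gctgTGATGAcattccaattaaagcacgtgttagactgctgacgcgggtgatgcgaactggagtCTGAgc
SNORA55: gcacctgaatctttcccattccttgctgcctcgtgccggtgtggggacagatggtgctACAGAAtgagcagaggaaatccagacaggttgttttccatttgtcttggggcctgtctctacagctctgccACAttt
SNORA3B: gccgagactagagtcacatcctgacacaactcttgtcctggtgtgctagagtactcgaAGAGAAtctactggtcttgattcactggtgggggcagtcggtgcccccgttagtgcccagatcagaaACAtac
SNORA72 at NUCKS1: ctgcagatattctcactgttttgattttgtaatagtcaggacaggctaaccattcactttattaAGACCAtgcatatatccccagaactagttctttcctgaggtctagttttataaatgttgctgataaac
SNORA79B: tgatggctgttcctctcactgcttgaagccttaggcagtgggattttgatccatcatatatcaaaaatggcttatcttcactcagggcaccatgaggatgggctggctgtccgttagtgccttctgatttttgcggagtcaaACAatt
SCARNA18: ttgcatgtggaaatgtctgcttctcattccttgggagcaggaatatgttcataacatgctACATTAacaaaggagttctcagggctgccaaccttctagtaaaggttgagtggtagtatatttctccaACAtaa
SCARNA18B: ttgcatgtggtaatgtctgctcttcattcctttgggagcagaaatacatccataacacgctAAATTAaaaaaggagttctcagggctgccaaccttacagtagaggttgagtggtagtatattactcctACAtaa
SNORD99 lies in an intron of SNHG12 at chr1:28578749-28578822 on the minus strand, SNORD100 in an intron of RPS12 at chr6:132816802-132816877 on the plus strand, SNORD12C in an intron of ZFAS1 at chr20:49278940-49279028 on the plus strand and SNORD104 in an intron of SNHG25 at chr17:64146083-64146152 on the plus strand. SNORA55 lies in an intron of PABPC4 at chr1:39567374-39567508 on the minus strand, with PABPC4-AS1 across it on the other strand, and SNORA3B in an intron of RPL27A at chr11:8685439-8685569 on the plus strand. A gene with the symbol SNORA72 lies in an intron of NUCKS1 at chr1:205731221-205731352, SNORA79B in an intron of CCNB1IP1 at chr14:20323179-20323326, SCARNA18 in an intron of TMEM167A at chr5:83064204-83064337 and SCARNA18B in an intron of UCHL5 at chr1:193057281-193057415, all 4 on the minus strand.

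The boxes were found where the names place them. Of 54 C/D genes with a single transcript, 47 (87.0%) had CTGA in the last 15 bases, 36 (66.7%) had TGATGA in the first 20 and 35 had both. H/ACA genes had these letters in 3 and in 0 of 72. ACA stood in the last 6 bases of 63 of 72 H/ACA genes (87.5%), of 11 of 15 Cajal body genes (73.3%) and of 9 of 54 C/D genes (16.7%). Of the 10310 annotated genes of at most 300 bases with other names, 7.45% had CTGA, 0.951% had TGATGA and 6.98% had ACA in the same windows. ANANNA in the middle of the gene was found in 57 of 72 H/ACA genes (79.2%) but also in 44.0% of those other small genes. On the reverse complement, CTGA was found in 5 of 54 C/D genes and ACA in 3 of 72 H/ACA genes. A match describes the letters only.

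Few reads stood behind each gene, which are short: median lengths were 81 bases for C/D, 135 for H/ACA and 139 for Cajal body genes. Values are on the authors' deposited log2 FPKM scale, that is, fragments scaled to gene length and library size, with a prior count of about 1 read already added, and whole reads could be recovered from them. All 145 genes passed the filter, which asked for a positive log2 value in 3 or more libraries. Mean reads per library ran from 4.0 to 359.1 over the 145 genes with a median of 19.7, being 22.15 for C/D, 17.75 for H/ACA and 18.3 for Cajal body genes. At least 50 mean reads were reached by 26 genes, 53 had under 15, and 86 had no read in at least 1 library. All members together took 217 to 345 RPM, reads per M of the library size behind the deposited values.

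Libraries were deeper for the inside constructs (19.99 to 35.57 M recovered reads) than for the outside constructs (11.6 to 16.62 M), so side and depth cannot be told apart. In labeled replicate 2 of CD28, 35 of the 145 genes were at 0 reads, and in control replicate 2 of PDGFR 33 were, against 0 to 19 in the other 24 libraries. Both libraries stand apart, and values without them are given beside the class medians, the class sums and the PDGFR calls. The median SD of a member over the libraries of a group was 1.27 log2 units in PDGFR controls and 0.323 in labeled Lck libraries. Of 8 markers of HEK293T cells, 7 were rows, with summed levels of 91.0 to 160 FPKM in labeled and 90.7 to 155 FPKM in control libraries. Markers of blood (2 of 5 were rows) summed to 1.98 to 4.64 FPKM in labeled and 2.54 to 5.94 FPKM in control libraries.

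Where the genes lie was read from the annotation. Of the 145 genes, 130 lie within a host gene on the same strand, 110 of them in a protein-coding and 20 in a noncoding host. The other 15 lie only within a gene on the other strand. Where several genes on the same strand held a member, the one with the shortest span over 300 bases was taken as host. Values relative to the host depend on that rule. An annotated exon, of the host or of any other gene on either strand, is touched by 11 genes. SNORD37 overlaps an exon of its host EEF2, while SNORA36B overlaps MIR664A but lies 1600 bases from the nearest host exon. The others in a host are intronic. The median distance to the nearest host exon was 106 bases for C/D, 505.5 for H/ACA and 671 for Cajal body genes. The sources used here do not say whether the libraries kept the strand. Gene-level values do not tell reads of a finished small RNA from reads of the host's intron, and reads of genes on opposite strands cannot be told apart.

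Most members had a lower level than their host. Of 130 hosted genes, 21 exceeded the host's mean log2 FPKM over the 26 libraries, being 10 of 53 C/D, 9 of 62 H/ACA and 2 of 15 Cajal body genes. The median difference in level was -1.79 log2 units. In noncoding hosts 12 of 20 genes exceeded the host (median 0.18), and in coding hosts 9 of 110 did (median -2.07). Spearman's rho between a gene's level and its host's level was 0.427 over 53 C/D, 0.444 over 62 H/ACA and 0.145 over 15 Cajal body genes, a description over genes that share libraries and, in part, hosts.

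**Figure D1:**
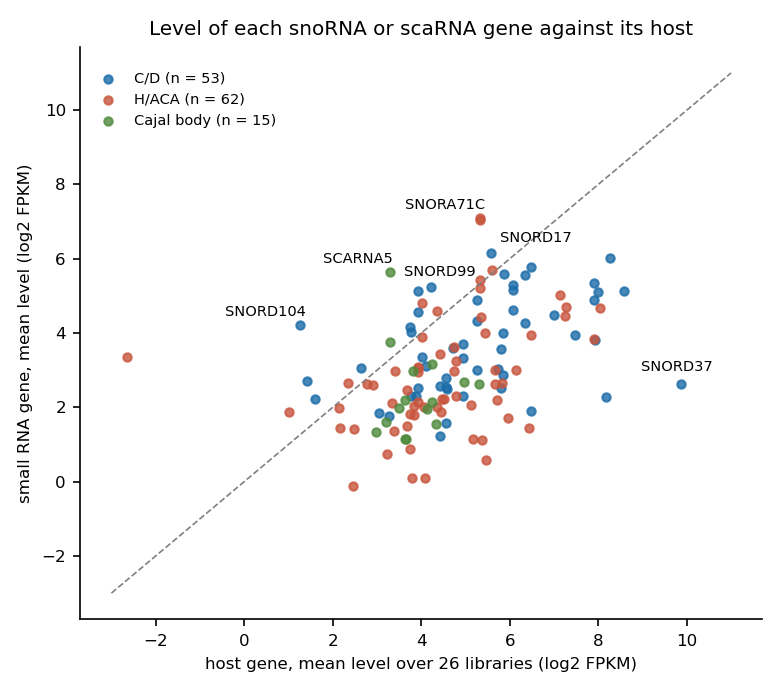
Each point is 1 of the 130 snoRNA or scaRNA genes with a host on the same strand, with the host's mean log2 FPKM over 26 libraries on the x axis and the gene's own on the y axis, coloured by class; the dashed line marks equal levels. Most points lie below the line, and 21 lie above it.

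The highest levels belonged to a few genes of each class. SNORA71C and SNORA71A, both in SNHG17 and members of a family that guides 18S rRNA pseudouridylation, averaged 7.09 and 7.06 log2 FPKM, 1.77 and 1.73 above that host. SNORD17, a 28S rRNA guide in SNX5, averaged 6.16 log2 FPKM, 0.59 above its host, and SNORD83A, which has no known rRNA target, averaged 6.02, with a difference of -2.25 from its host RPL3. SNORA73B, also called U17, takes part in early cuts of the ribosomal RNA precursor and averaged 5.69 log2 FPKM, about as high as its host SNHG3 (difference 0.08). SCARNA5, a guide for U5 small nuclear RNA in ATG16L1, averaged 5.64 log2 FPKM, 2.35 above its host. SNORD104 stood 2.96 above SNHG25. SNORA30 averaged 3.36 log2 FPKM, 6.01 above a gene listed only as ENSG00000282034, whose own level was very low (-2.65 log2 FPKM). The lowest gene relative to its host was SNORD37, at -7.26 log2 units from EEF2.

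Few members differed between labeled and control libraries, and the average medians of the 3 classes lay between -0.01 and 0.14 log2 units. Over the average of the 4 constructs, 6 of the 145 genes rose (4.14%) and 5 fell (3.45%), where 4.29% of all 22284 genes tested rose and 3.08% fell (limma, Benjamini-Hochberg adjusted p under 0.05 over all genes), shares near that background. The risers were 4 of 56 C/D genes (SNORD99, SNORD100, SNORD12C and SNORD104) and 2 of 74 H/ACA genes (SNORA3B and SNORA55), and the fallers 1 C/D gene (SNORD38D) and 4 H/ACA genes. None of the 15 Cajal body genes passed in limma, and limma voom on recovered reads called 1, SCARNA7. An unadjusted p under 0.05 in limma was found for 34 members (23.4%) and 19.2% of all genes. By class these were 15 C/D genes (26.8%), 17 H/ACA genes (23.0%) and 2 Cajal body genes (13.3%). Voom called 7 of the 145 genes higher and 2 lower, where it called 3.98% of all genes higher and 3.66% lower. The median difference was 0.06 log2 units for C/D, -0.01 for H/ACA and 0.14 for Cajal body genes, against -0.01 for all genes. When each library was centred on its median, 6 rose and 3 fell and the H/ACA median was 0.03. Without CD28 labeled replicate 2, 9 rose and 2 fell and the medians were 0.15, 0.12 and 0.29 in the same order of classes. Without PDGFR control replicate 2, 7 rose and 2 fell and the medians were 0.07, -0.07 and 0.14. The median standard error of a member's average difference was 0.386 log2 units, 0.171 for the 26 genes with at least 50 mean reads and 0.457 for the 53 with under 15.

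Within single constructs limma called 0 or 1 member, apart from PDGFR, and which construct had calls changed with the fit. The main fit used 1 spread per gene, shared over all 26 libraries. The standard error and p of a single construct therefore do not measure that construct's own spread. The median SD of a member was 1.27 log2 units in PDGFR controls and 0.685 in labeled PDGFR libraries. In Lck it was 0.33 in controls and 0.323 in labeled libraries. For Lyn11 limma called 0 of 145 members, where 0.579% of all genes were called, 9 members (6.21%) and 5.65% of all genes had an unadjusted p under 0.05, and voom called 0 members and 0.864% of all genes. For Lck 1 member rose, SNORA55, where 0.794% of all genes were called. An unadjusted p under 0.05 in Lck was found for 7 members (4.83%) and 6.4% of all genes, and voom called 0 members and 1.32% of all genes. With libraries weighted by construct, Lck gave 7 members (4.83%), where 8.22% of all genes were called, and fitted alone it gave 10 (6.9%), where 4.42% were. For CD28 limma called 0, where 0.476% of all genes were called, 27 members (18.6%) and 13.5% of all genes had an unadjusted p under 0.05, and voom called 0 members and 0.081% of all genes. For PDGFR 7 rose and 1 fell, 8 of 145 (5.52%) where 2.13% of all genes were called (1.37% higher and 0.758% lower). Of 598 small RNA genes of other families nested in hosts, 5.18% were called for PDGFR, a share near that of the members. An unadjusted p under 0.05 in PDGFR was found for 30 members (20.7%), 24.4% of those 598 genes and 14.1% of all genes. The 8 PDGFR calls came down to 0 in limma voom (where 0.243% of all genes were called), 0 when libraries were weighted by construct and 0 when the 6 PDGFR libraries were fitted alone. They also varied from 2 without PDGFR labeled replicate 3, through 3 without labeled replicate 2 or control replicate 2, to 14 without control replicate 1.

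The classes did not keep 1 order over the constructs. C/D genes had a median of 0.01 log2 units in Lyn11, 0.14 in Lck, -0.17 in CD28 and 0.33 in PDGFR. H/ACA medians were 0.07, 0.01, -0.14 and 0.07 in that order of constructs, and Cajal body medians were -0.07, 0.19, -0.08 and 0.16. All genes had -0.03, -0.04, 0.03 and 0.02. Centring each library on its median moved the CD28 median of all genes to 0.15, and those of C/D, H/ACA and Cajal body genes to -0.04, -0.02 and 0.05. Quantile normalization gave -0.06 for H/ACA genes in PDGFR. In voom the CD28 median of all genes was -0.12 and those of C/D, H/ACA and Cajal body genes were -0.34, -0.34 and -0.24, while the H/ACA median in PDGFR was -0.00 and the Cajal body median in Lyn11 turned to 0.02. Without CD28 labeled replicate 2 the CD28 medians turned positive, at 0.20 for C/D, 0.15 for H/ACA and 0.28 for Cajal body genes. Without PDGFR control replicate 2 the H/ACA median for PDGFR turned to -0.14.

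**Figure D2:**
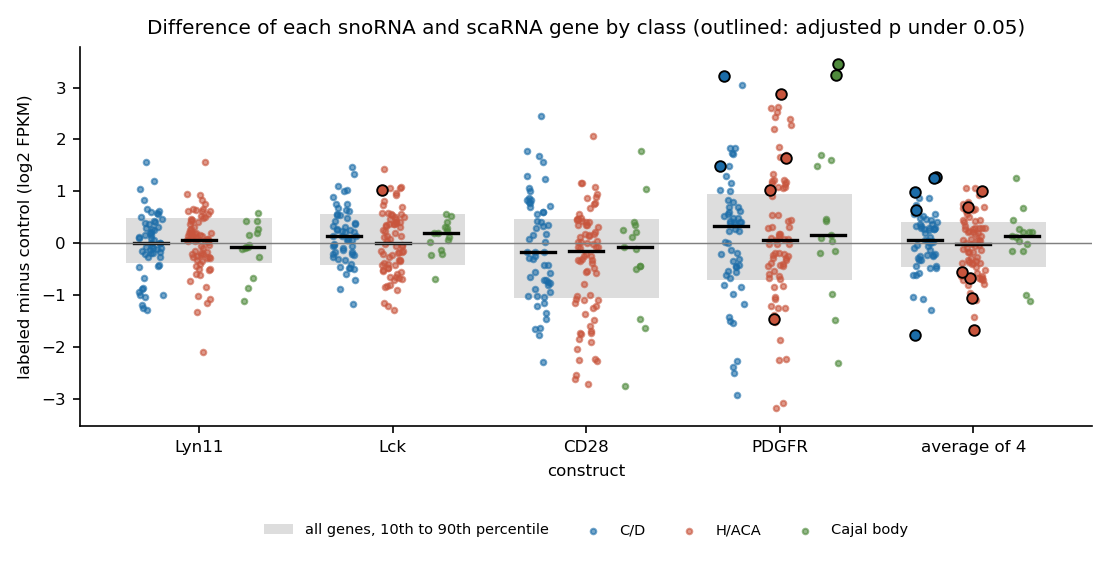
Each point is 1 of the 145 genes, with its labeled minus control difference in log2 FPKM on the y axis, by construct on the x axis and coloured by class; short lines are class medians, grey bands span the middle of all genes from the 10th to the 90th percentile, and outlined points had an adjusted p under 0.05. The points spread more widely for CD28 and PDGFR than for Lyn11 and Lck, and the class medians stay between -0.17 and 0.33.

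Counting the genes whose labeled and control libraries did not overlap gave a related picture. Every labeled library lay above every control for 8 members (5.52%) in Lyn11, 25 (17.2%) in Lck, 8 (5.52%) in CD28 and 12 (8.28%) in PDGFR. The shares over all genes were 3.4%, 12.9%, 7.44% and 7.53% in the same order. Every labeled library lay below every control for 1 (0.69%), 10 (6.9%), 13 (8.97%) and 5 (3.45%) members, against 1.91%, 13.2%, 6.59% and 6.39% of all genes.

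SNORD99, a guide for methylation of 28S rRNA, was the member that rose most. It stood at 6.52, 5.21, 5.54 and 5.72 log2 FPKM in labeled Lyn11 libraries, against 4.73, 4.62, 4.62 and 4.20 in their controls, and at 5.65, 5.84 and 5.31 in labeled Lck libraries, against 3.96, 4.78 and 4.05 in controls. For CD28 it stood at 6.56, 5.29 and 6.58 log2 FPKM labeled and 5.45, 5.10 and 4.69 in controls, and for PDGFR at 6.33, 5.98 and 5.73 labeled and 5.44, 3.86 and 4.29 in controls. Labeled libraries lay above all controls in Lyn11, Lck and PDGFR, and in CD28 labeled replicate 2 fell among the controls. In PDGFR alone SNORD99 rose by 1.48 ± 0.39 (adjusted p 0.047 in limma), a call kept under 11 of 36 alternatives and lost without PDGFR control replicate 2. The average difference was 1.27 ± 0.19 log2 units (± is the standard error of the limma fit; adjusted p 0.000132 in limma), and it was called under all 35 alternatives tried. SNHG12, its host, a long noncoding RNA, rose by 1.18 ± 0.08 on average (adjusted p 3.67e-09 in limma) and was called in all 4 constructs. The gene and its host differed in their change by 0.10 ± 0.22 (adjusted p 0.893 in limma).

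SNORD12C, also a 28S rRNA guide, sits in ZFAS1, a noncoding host of the same kind. Labeled libraries held 5.43, 5.60, 4.73 and 6.12 log2 FPKM for Lyn11, against 4.46, 4.48, 4.79 and 3.94 in controls, and 5.46, 4.93 and 4.56 for Lck, against 3.92, 4.66 and 4.72. For CD28 the values were 5.80, 6.90 and 6.02 labeled and 4.55, 3.82 and 5.66 in controls, and for PDGFR 5.89, 5.82 and 5.99 labeled and 4.70, 6.01 and 4.59 in controls. The groups were apart in CD28 and overlapped in the other 3. SNORD12C rose by 0.99 ± 0.21 on average (adjusted p 0.00451 in limma, called under all 35 alternatives), and ZFAS1 rose by 0.52 ± 0.07 (adjusted p 4.02e-05). Its neighbour in the same host, SNORD12B, differed by 0.49 ± 0.61 on average and ran from -1.22 for CD28 to 3.05 for PDGFR.

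SNORD104, a 28S rRNA guide in the noncoding host SNHG25, had fewer reads, 25.8 per library on average. Its Lyn11 values were 4.30, 3.82, 3.14 and 4.50 log2 FPKM labeled and 4.28, 3.70, 4.12 and 3.87 in controls, and its Lck values 4.43, 4.09 and 4.12 labeled and 3.85, 3.77 and 4.01 in controls. In CD28 libraries it had 4.92, 4.25 and 5.42 labeled and 3.93, 3.31 and 3.48 in controls, and in PDGFR libraries 5.30, 5.95 and 4.38 labeled and 3.59, 4.85 and 4.14 in controls. Groups were apart in Lck and CD28. The average rise was 0.65 ± 0.18 (adjusted p 0.0326 in limma), called under 23 of 35 alternatives and not in voom, and the difference was -0.05 for Lyn11 and 1.29 for CD28. SNHG25 had only 14.6 reads per library and differed by 0.76 ± 0.33 (adjusted p 0.205).

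SNORD100 and SNORA3B lie in hosts that encode ribosomal proteins. SNORD100, a guide for 18S rRNA in RPS12, had 5.72, 4.94, 5.38 and 5.12 log2 FPKM in labeled Lyn11 libraries, against 4.57, 4.68, 4.48 and 4.12 in controls, and 5.38, 5.44 and 5.18 in labeled Lck libraries, against 4.47, 4.28 and 4.22. Labeled CD28 libraries had 5.10, 6.43 and 5.72, against 2.45, 5.11 and 4.65 in controls, and labeled PDGFR libraries 5.53, 5.86 and 5.52, against 4.03, 3.72 and 4.72. Only in CD28 did the groups overlap, by the labeled replicate 1 and the control replicate 2. SNORD100 rose by 1.25 ± 0.22 on average (adjusted p 0.000707 in limma, called under all 35 alternatives). RPS12 itself differed by 0.27 ± 0.19 (adjusted p 0.495), and the difference between SNORD100 and RPS12 in their change was 0.98 ± 0.36 (adjusted p 0.168 in limma). The other 2 members in RPS12 differed by 0.52 ± 0.19 (SNORD101, adjusted p 0.114) and 0.44 ± 0.25 (SNORA33, adjusted p 0.368).

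SNORA3B had its labeled libraries above all controls in each of the 4 constructs. It held 4.15, 4.10, 3.71 and 3.60 log2 FPKM in labeled Lyn11 libraries, against 3.53, 3.36, 3.31 and 2.84 in controls, and 4.53, 4.67 and 3.94 in labeled Lck libraries, against 3.14, 3.69 and 3.38. CD28 gave 4.88, 4.50 and 4.96 labeled and 4.09, 4.23 and 3.74 in controls, and PDGFR 5.02, 4.83 and 5.47 labeled and 3.31, 2.44 and 4.63 in controls. The average rise was 1.00 ± 0.17 (adjusted p 0.000674 in limma, called under all 35 alternatives). RPL27A differed by 0.20 ± 0.14 (adjusted p 0.493) and the gene minus host difference was 0.80 ± 0.27 (adjusted p 0.129 in limma). Within PDGFR alone SNORA3B rose by 1.65 ± 0.36 (adjusted p 0.0163 in limma), with 198 reads over the labeled and 77 over the control libraries. That PDGFR call held under 30 of 36 alternatives. It was lost without PDGFR control replicate 2, which had 9 reads, and without the 2 libraries that stand apart. The call was also lost in voom, with library weights, with PDGFR fitted alone and without PDGFR labeled replicate 3. The closest other small gene, SNORA3C, is 87.0% identical to SNORA3B, so reads may be split between copies.

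SNORA55, which guides pseudouridylation of 18S rRNA, rose in both an inside and an outside construct. Its Lyn11 values were 4.87, 4.97, 4.63 and 5.17 log2 FPKM labeled and 4.54, 4.05, 3.93 and 3.76 in controls, and its Lck values 4.94, 4.75 and 4.68 labeled and 3.68, 3.97 and 3.65 in controls. For CD28 it had 4.86, 3.97 and 5.01 labeled and 4.74, 4.45 and 4.92 in controls, and for PDGFR 4.78, 4.56 and 5.18 labeled and 3.91, 4.06 and 3.49 in controls. The groups were apart in Lyn11, Lck and PDGFR and overlapped in CD28, where the difference was -0.09 ± 0.24. SNORA55 rose by 1.02 ± 0.24 for Lck (adjusted p 0.0473 in limma), by 1.02 ± 0.24 for PDGFR (adjusted p 0.0283, kept without control replicate 2) and by 0.70 ± 0.12 on average (adjusted p 0.000499, called under all 35 alternatives). PABPC4, its host, encodes a cytoplasmic poly(A)-binding protein and rose by 0.24 ± 0.05 (adjusted p 0.00231). The Lck call was lost under 18 of 36 alternatives, among them the omission of any 1 of the 6 Lck libraries. The PDGFR call held under 29 of 36. It was lost in voom, with library weights, with a replicate block, with PDGFR fitted alone, and without PDGFR labeled replicate 1 or 3 or control replicate 3.

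**Figure D3:**
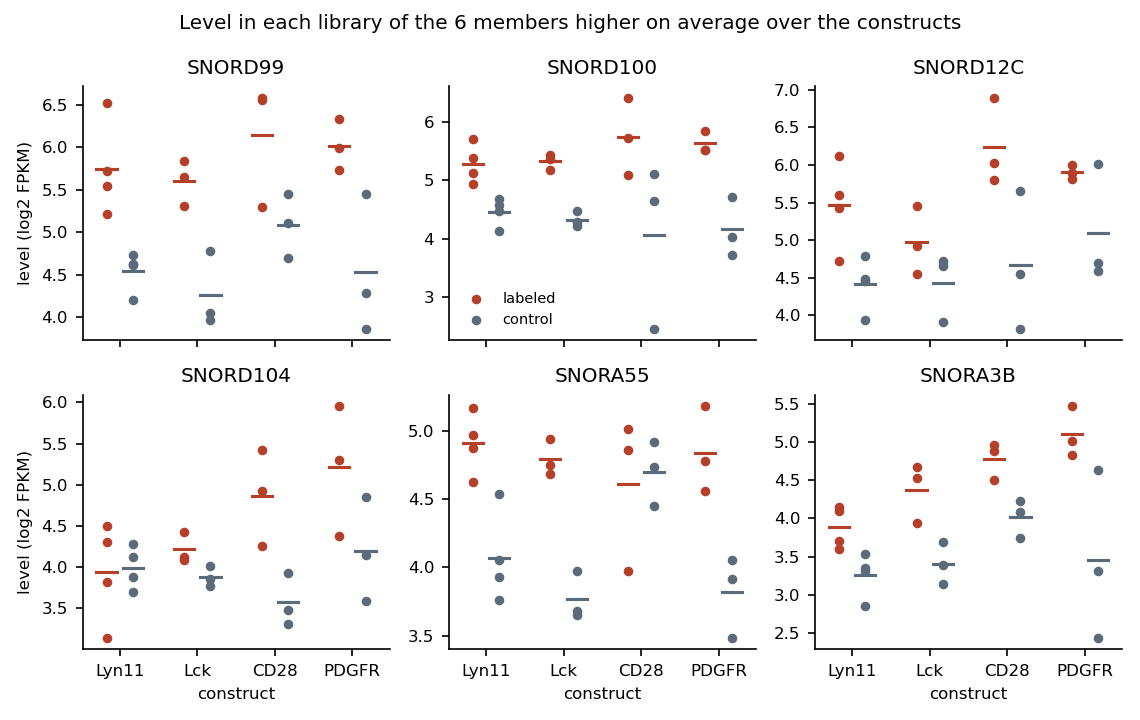
Each panel is 1 of the 6 members that rose on average, with log2 FPKM in each library on the y axis and the construct on the x axis; labeled libraries stand left of their controls and short lines are group means. SNORA3B has every labeled point above every control in all 4 constructs, and SNORA55 shows no such gap in CD28.

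Of the 5 genes that fell on average, the gene with the symbol SNORA72 in NUCKS1 had the most reads, 68.1 per library. It stood at 4.22, 4.03, 4.16 and 2.91 log2 FPKM in labeled Lyn11 libraries, against 4.62, 5.03, 5.00 and 4.76 in controls, and at 3.98, 4.64 and 4.96 in labeled Lck libraries, against 4.97, 4.99 and 4.89. For CD28 it stood at 4.52, 4.004 and 4.36 labeled and 5.11, 5.69 and 5.14 in controls, and for PDGFR at 5.51, 4.24 and 5.01 labeled and 4.58, 5.09 and 5.79 in controls. Labeled libraries lay below all controls in Lyn11 and CD28 and overlapped them in Lck and PDGFR. The gene fell by 0.67 ± 0.17 on average (adjusted p 0.0155 in limma, called under all 35 alternatives), while NUCKS1 differed by -0.03 ± 0.10 (adjusted p 0.939). Its sequence above has no ACA in the last 6 bases, and the closest other small gene, another SNORA72, is 90.2% identical, so reads may be split between copies.

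SNORA79B in CCNB1IP1 fell on average and in PDGFR. It had 3.02, 3.18 and 4.04 log2 FPKM in labeled PDGFR libraries, against 4.61, 4.98 and 5.06 in controls, and the groups did not overlap. In PDGFR it fell by 1.46 ± 0.34 log2 units (adjusted p 0.025 in limma), with 70 reads over the labeled and 196 over the control libraries. That call held under 29 of 36 alternatives and was lost in voom, with library weights, with PDGFR fitted alone, and without PDGFR labeled replicate 1 or 2 or control replicate 2 or 3. In the other 3 constructs the differences were -0.26 for Lyn11, -0.52 for Lck and 0.05 for CD28, and groups overlapped in each. The average was -0.55 ± 0.16 (adjusted p 0.0458 in limma), a call kept under only 13 of 35 alternatives.

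The other 3 genes that fell had 7.6 to 16.4 reads per library and were called under 14 to 17 of the 35 alternatives. SNORD38D, which lies only across from ADAM9 on the other strand, differed by -1.78 ± 0.54 (adjusted p 0.0475 in limma). It had 0 to 9 reads in labeled and 0 to 44 in control libraries, and groups overlapped in all 4 constructs. Its closest other small gene, SNORD38B, is 88.4% identical, so reads may be split between copies. A SNORA75 gene across from DDX12P differed by -1.67 ± 0.49 (adjusted p 0.0416), and its closest copies are 97.3% and 96.0% identical, so the division of reads among them is uncertain. A SNORA62 gene in ZMYM4 differed by -1.06 ± 0.32 (adjusted p 0.0445), with groups apart in CD28 and PDGFR, while ZMYM4 differed by -0.04 ± 0.08.

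In PDGFR 4 further genes rose that were not called on average, and each had at least 1 control library with 0 to 2 reads. SCARNA18 had 5, 5 and 16 reads in labeled PDGFR libraries and 0, 0 and 0 in controls. Its ratio in RPM had a lower 95% bound of 6.87 (counting error only). Its fitted difference was 3.45 ± 0.75 (adjusted p 0.0169 in limma), and it was 0.12 for CD28, 0.02 for Lck and -0.87 for Lyn11. The PDGFR call held under 32 of 36 alternatives, among them the omission of control replicate 2. It was lost in voom, with library weights, with PDGFR fitted alone, and without PDGFR labeled replicate 3, which had 16 of the reads. SCARNA18B, whose sequence is 89.6% identical, was not called in any construct, and reads may be shared between the pair. SNORD11B, in NOP58, had 19, 34 and 13 reads in labeled and 3, 0 and 4 in control PDGFR libraries, a ratio of 9.87 in RPM (95% interval 4.53 to 25.5, counting error only), and rose by 3.22 ± 0.80 (adjusted p 0.0397 in limma). In the other constructs its differences were -0.43 for Lyn11, -0.48 for Lck and -0.70 for CD28.

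SCARNA7, also called U90 and a guide for methylation of U1 small nuclear RNA, lies in KPNA4. It had 32, 56 and 29 reads in labeled and 37, 0 and 2 in control PDGFR libraries, so that control replicate 1 lay among the labeled libraries. The reads gave a ratio of 3.14 in RPM (95% interval 2.17 to 4.64, counting error only). On the log2 scale it rose by 3.24 ± 0.83 (adjusted p 0.0453 in limma), a value in which the control at 0 reads weighs as much as the one with 37, called under 9 of 36 alternatives, and differed by 1.26 ± 0.40 on average (adjusted p 0.0621), with positive differences in all 4 constructs. A SNORA70 gene across from CIP2A had 4, 13 and 19 reads in labeled and 6, 0 and 0 in control libraries and rose by 2.88 ± 0.68 (adjusted p 0.0278), also with overlapping groups. Both calls were lost without PDGFR control replicate 2, as was that of SNORD11B. The SNORA70 call held under 27 of 36 alternatives and that of SNORD11B under 22 of 36.

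Set against their hosts, few members passed the test of a different change. The difference in change between small RNA and host was fitted for 713 nested small RNA genes of any family, 129 of them members. In PDGFR 2 members rose relative to their host, SCARNA18 over TMEM167A by 3.49 ± 0.73 (adjusted p 0.0068 in limma) and SNORD11B over NOP58 by 3.41 ± 0.84 (adjusted p 0.014), where 2.38% of the 713 pairs were higher, so 2 of 129 is near that share. An unadjusted p under 0.05 in PDGFR was found for 17 member pairs and for 20.8% of all pairs. On average limma called 0 of 129 pairs, where 3.23% of all pairs were called, and 11 had an unadjusted p under 0.05, as had 14.2% of all pairs. For Lyn11 limma called 0 member pairs, where 0.701% of all pairs were called, and 0 had an unadjusted p under 0.05, against 2.38% of all pairs. For Lck it called 0, where 0.421% were called, with 0 at an unadjusted p under 0.05 against 1.96% of all pairs. For CD28 it called 0, where 0.561% were called, with 15 at an unadjusted p under 0.05 against 15.4% of all pairs. The median pair difference on average was 0.05 log2 units for the members and -0.12 for all 713 pairs.

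Of 105 hosts, 5 rose on average (SNHG12, SNHG3, PABPC4, KANSL2 and ZFAS1) and 2 fell (KHDC4 and CCT6P1), where 4.29% of all genes rose and 3.08% fell, and 5 of 105 is near that share. SNHG12, ZFAS1 and PABPC4 are hosts of members that rose. SNHG3 rose by 0.34 ± 0.04 (adjusted p 8.75e-06 in limma) while SNORA73B within it differed by 0.06 ± 0.14 (adjusted p 0.882), and KANSL2 rose by 0.35 ± 0.06 while SNORA2B within it differed by 0.79 ± 0.33 (adjusted p 0.177). The 10 hosts that encode ribosomal proteins had a median difference of 0.15 with 0 called in limma on average.

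**Figure D4:**
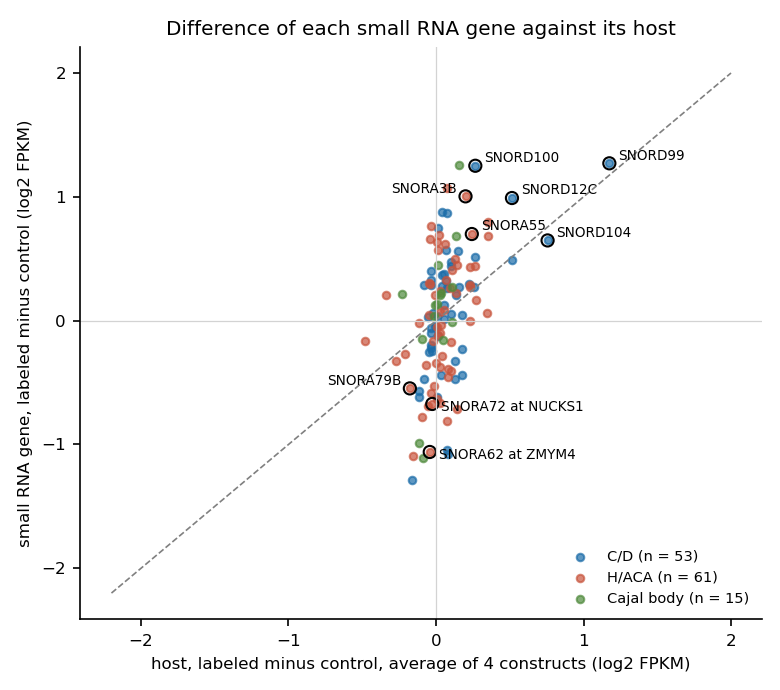
Each point is 1 of 129 hosted members, with the host's labeled minus control difference averaged over 4 constructs on the x axis and the member's own on the y axis, both in log2 FPKM and coloured by class; the dashed line marks equal differences and outlined points had an adjusted p under 0.05. SNORD99 lies far to the right with SNHG12 (1.27 against 1.18), while SNORD100 and SNORA3B lie high above hosts near 0.27 and 0.20.

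By kind of host, the 20 members in noncoding hosts had a median average difference of 0.25 log2 units with 3 risen and 14 above 0, and the 110 in coding hosts had 0.05 with 3 risen and 3 fallen and 61 above 0. Of all genes 4.29% rose, 3.08% fell and 48.9% lay above 0, and no difference between kinds of host was tested. The 12 members in ribosomal protein genes had a median of 0.44, with 2 risen and 11 of 12 above 0. The 15 genes that lie only across from a gene on the other strand had a median of -0.39, with 2 fallen and 4 above 0. That last median was -1.64 in CD28 alone, and -0.39 there without labeled replicate 2. Without both libraries that stand apart the average medians were 0.19 in noncoding hosts, 0.11 in coding hosts, 0.57 in ribosomal protein genes and -0.27 for genes only across from another. Depth moved with these values: the 26 members with at least 50 mean reads had a median of 0.27 with 21 above 0, and the 53 with under 15 had -0.15 with 23 above 0, a median that turned to 0.05 without both libraries. The part of depth in the differences between kinds of host was not tested.

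The values of members that share a host are given side by side, and differences between them were not tested. In SNHG17 the average differences were 0.43 ± 0.17 for SNORA71B, 0.29 ± 0.11 for SNORA71C, 0.27 ± 0.17 for SNORA71D and -0.00 ± 0.09 for SNORA71A, none of them called (adjusted p 0.134 to 0.993 in limma). Because SNORA71C is 87.3% identical to SNORA71D and 86.6% to SNORA71A, the split of reads among them is uncertain. In NOP58 the values were 0.40 ± 0.39 for SNORD11B, -0.06 ± 0.19 for SNORD11 and -0.20 ± 0.24 for SNORD70, none of them called. In KANSL2 they were 0.68 ± 0.41 for SNORA2A and 0.79 ± 0.33 for SNORA2B, and in GNL3 they ran from -0.44 ± 0.20 for SNORD19C to 0.04 for SNORD69.

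Many of the most abundant members did not pass the test. Of the 26 members with at least 50 mean reads, 3 rose and 1 fell on average (15.4%), where 7.37% of all genes were called. An unadjusted p under 0.05 was found for 12 of the 26 (46.2%) and for 19.2% of all genes. These shares were not tested against each other. SNORD17 had 6.23, 6.33 and 6.34 log2 FPKM in labeled Lck libraries, against 6.37, 6.43 and 6.25 in controls, and its average difference was 0.03 ± 0.13 (adjusted p 0.953 in limma). In PDGFR it had 6.31, 5.96 and 6.18 labeled and 5.92, 4.91 and 5.93 in controls, so that the groups were apart there, with a difference of 0.56 ± 0.28 (adjusted p 0.37 in limma), and they overlapped in the other 3 constructs. SCARNA5 had 6.42, 6.36 and 6.76 in labeled Lck libraries, against 6.86, 6.32 and 6.19 in controls, with an average of -0.01 ± 0.30, and SCARNA6, its neighbour in ATG16L1 and also a guide for U5, 0.27 ± 0.23. SNORD83A (0.44 ± 0.16, adjusted p 0.101), SNORD88A (0.47 ± 0.22, adjusted p 0.249), SNORD46 (0.27 ± 0.11, adjusted p 0.158) and SNORD20 (0.26 ± 0.13, adjusted p 0.297) lay above 0 without passing.

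C/D members summed to 100.1 ± 10.0 RPM in labeled Lyn11 libraries, against 90.4 ± 3.87 in controls (SD, n = 4 each), and to 112 ± 2.37 in labeled Lck libraries, against 97.5 ± 6.66 in controls (SD, n = 3 each). They summed to 120.4 ± 10.0 in labeled CD28 libraries, against 112 ± 10.1, and to 131 ± 8.06 in labeled PDGFR libraries, against 115 ± 25.96 in controls (SD, n = 3 each). The Lck groups were apart and the others overlapped. Without CD28 labeled replicate 2 and PDGFR control replicate 2, the C/D sums were apart in CD28 (log2 difference 0.18) and PDGFR (0.39) as well. H/ACA members summed to 144 ± 10.2, 154 ± 4.18, 149.97 ± 31.8 and 174 ± 6.60 in labeled Lyn11, Lck, CD28 and PDGFR libraries, against 126 ± 10.9, 140.4 ± 8.27, 164 ± 1.71 and 161 ± 7.61 in their controls, with overlap in every construct. Cajal body members summed to 27.5 ± 8.83, 46.2 ± 6.75, 30.3 ± 14.0 and 27.6 ± 4.95 in labeled libraries, against 26.8 ± 5.38, 43.9 ± 12.4, 33.6 ± 15.8 and 22.3 ± 6.93 in controls, in the same order and with overlap in every construct. All members together summed to 272 ± 5.60 RPM in labeled Lyn11 libraries, against 243 ± 19.2 in controls (SD, n = 4 each), and to 312 ± 7.11 in labeled Lck libraries, against 282 ± 16.1 in controls (SD, n = 3 each). They summed to 333 ± 10.1 RPM in labeled PDGFR libraries, against 299 ± 15.9 in controls, and to 301 ± 53.7 in labeled CD28 libraries, against 309 ± 25.4 in controls (SD, n = 3 each). These totals overlapped in CD28, where labeled replicate 2 had 240.4 RPM, and lay higher in every labeled than in any control library of the other 3 constructs, with log2 differences of 0.15 to 0.17 between the means. Averaged over constructs the log2 differences of the sums were 0.17 for C/D, 0.07 for H/ACA and 0.07 for Cajal body members, and 0.23, 0.11 and 0.10 without the 2 libraries that stand apart, with no test. The 4 copies of U3, a C/D RNA that takes part in cutting the ribosomal RNA precursor and is not among the members, summed to 108 ± 3.80, 114 ± 14.6, 109 ± 20.8 and 112 ± 11.1 RPM in labeled libraries, against 27.4 ± 17.1, 24.1 ± 11.8, 42.1 ± 2.47 and 25.2 ± 7.55 in controls. The groups of U3 were apart in all 4 constructs, with an average log2 difference of 2.02.

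**Figure D5:**
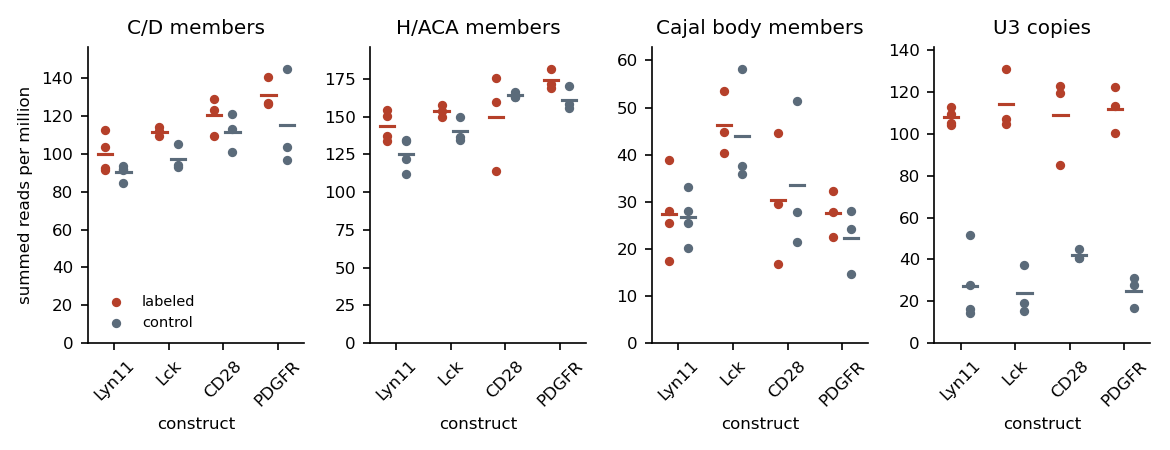
RPM (reads per M of library size) summed over the C/D, H/ACA and Cajal body members and over the U3 copies are shown on the y axis, 1 point a library with short lines at group means, by construct on the x axis with labeled libraries left of controls. Labeled and control points of the 3 member classes overlap, apart from C/D members in Lck, and those of U3 lie apart in every construct.

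Other small RNA genes nested in hosts, 598 of them, had 26 risen (4.35%) and 20 fallen on average, with a median of -0.13. The members' 6 risen (4.14%) and median of 0.05 stand beside these values with no test between them.

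The side of the membrane was compared by the difference between the inside and the outside average. Limma called 0 of 145 members, where 0.00449% of all genes were called, 12 members (8.28%) and 6.52% of all genes had an unadjusted p under 0.05, and voom called 0 members and 0 genes. Of those 12, 6 had positive and 6 negative differences. The smallest unadjusted p of each direction belonged to SNORD91B, at 1.35 ± 0.29 (adjusted p 0.372 in limma), and to SCARNA18, at -2.21 ± 0.73 (adjusted p 0.63). SNORD104, which rose on average, differed by -1.01 ± 0.36 (adjusted p 0.672). The median standard error of this difference was 0.773 log2 units, so for most members only large differences could have been found. For the 26 members with at least 50 mean reads it was 0.341. Between constructs of 1 side, a comparison added after the data were seen, limma called 0 members for Lyn11 minus Lck, where 0.0% of all genes were called, and 1 member had an unadjusted p under 0.05, as had 0.319% of all genes. It called 0 for CD28 minus PDGFR, where 0.0494% of all genes were called, with 25 members and 9.33% of all genes at an unadjusted p under 0.05. Voom called 0 in both.

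Genes of the proteins that work with these RNAs were seldom called, where 4.29% of all genes rose on average and 3.08% fell. Of the 4 core proteins of C/D particles, NOP56 rose on average by 0.24 ± 0.07 (adjusted p 0.0364 in limma), while the methyltransferase FBL, NOP58 and SNU13 did not pass. Limma called 0 of 4 core proteins of H/ACA particles, 0 of 11 measured assembly factors, 0 of 12 Cajal body components, 0 of 12 trimming and decay factors and 0 of 10 nucleolar proteins on average, with 0, 1, 1, 0 and 1 at an unadjusted p under 0.05 in that order. Their average medians lay between 0.01 and 0.09 log2 units, against -0.01 for all genes, and joined values of both signs. All 6 lists had negative medians in Lyn11 (-0.12 to -0.04) and Lck (-0.13 to -0.02) and positive ones in CD28 (0.15 to 0.29), and in PDGFR they ran from -0.06 to 0.26. These signs were not particular to the lists. The 7 HEK293T markers had medians of -0.10 in Lyn11, -0.22 in Lck and 0.24 in CD28, and the 105 hosts had -0.05, -0.06 and 0.18.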

How the data were processed

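The authors deposited log2 FPKM values of 25745 genes in 26 APEX-seq libraries. The submitters' processing notes name the aligner HISAT2 2.1.0, the build hg38 and, with no version, edgeR. Rows were matched to GENCODE 29 (24075 with the version of their identifier, 1579 without it, 91 not). Read counts were recovered for more genes than the 3956 whose libraries share a lowest value, as limma voom was fitted to 22226 genes. In those 3956 genes the recovered reads were 99.98% whole to within 0.05 read, a check that does not cover the other genes. Of the 145 members, 139 had whole reads in all values under 100 reads, and for 6 the whole share was undefined.

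The 22284 genes with log2 above 0 in at least 3 libraries were fitted with limma 3.58.1 in R 4.3.3. The fit had 1 mean per group, 1 spread per gene shared by all groups, and an intensity trend. Two-sided tests were adjusted by Benjamini-Hochberg over all genes within each comparison and called at 0.05. Gene minus host differences were fitted over 713 pairs alike. The fit was tested on simulated data. Sequences and identities used Biopython 1.88. Replicate pairs all differed beyond sampling noise (chi-square per gene 5.58 to 90.1 over 30 pairs), and the design text calls replicates biological. Intervals from reads cover counting error only.

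Members and lists were chosen with earlier results of these data known. Named are the members called in a comparison, the 5 with most reads in each class, a fixed list, and their hosts. Alternatives were another filter, scaling, pseudocount, limma voom, library weights, a replicate block, and each library left out.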

Additional observations from a re-analysis of the deposited data

Results flagged for a closer look

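Among 38 groups of 4 Lyn11 libraries tested for a library far from the others, 2 were marked, where chance marks about 1 in 20. The SNORA72 gene in NUCKS1 stood at 4.22, 4.03, 4.16 and 2.91 log2 FPKM in labeled Lyn11 libraries, and the gap below the other libraries was 0.861 of the range. SCARNA18 stood at 0.65, 2.70, 2.37 and 2.36 log2 FPKM in Lyn11 controls, with a gap of 0.834 of the range.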

How the results depend on the processing

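Of the counts and sums above, 295 values under an alternative stayed within 1.5 times the value given or within 1 SD, and 75 moved. Of the values of single called members, 499 stayed called, 210 fell short of the threshold and 0 reversed. The number of members called for Lyn11 (0) was 1 with median centring, 1 with library weights and 2 without the 2 libraries that stand apart. For Lck (1) it was 0 in voom, 7 with library weights, 2 without those libraries and 10 with Lck fitted alone. For PDGFR (8) it was 0 in voom, 0 with library weights, 4 without those libraries and 0 with PDGFR fitted alone. The members that fell on average (5) numbered 3 with median centring, 2 in voom, 3 with library weights and 2 without those libraries. With the replicate number as a block, Lck gave 0, PDGFR 5, and the average 7 risen and 4 fallen. Same-numbered deviations correlated at -0.29 to 0.17, and 3 of 13 labeled libraries matched their own number best. With 3 or 4 libraries in a group, this check cannot exclude that same-numbered libraries belong together. Leaving out 1 library at a time gave 0 to 1 calls for Lyn11, 0 to 1 for Lck, 0 to 3 for CD28, 2 to 14 for PDGFR, 5 to 12 risen and 1 to 5 fallen on average, 0 to 0 for inside minus outside and 0 to 1 pairs. The summed C/D reads ran from 0.137 to 0.21 log2 units, H/ACA from 0.041 to 0.119 and Cajal body from -0.013 to 0.164. Reads per gene are few, with 53 members under 15 mean reads, and the causes of the changes were not tested.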
